A study of Mus musculus with 2 samples.

Results

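The genes described here are 4 adult globins and 5 genes of red cell differentiation: the alpha globins Hba-a1 and Hba-a2, the beta globins Hbb-bs and Hbb-bt, the heme synthesis enzyme Alas2, the transcription factor Klf1, the membrane anion exchanger Slc4a1, and the carbonic anhydrases Car1 and Car2. They were taken by name as a list of globins and erythroid differentiation genes, and not by how they differed between samples. All 9 were found among the 22384 genes that both count tables held, of 27842 genes in either table.

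Hemoglobin, the oxygen carrier of red cells, is built from alpha chains, beta chains and heme. In bone marrow, erythroid progenitors become erythroblasts that switch on globin and heme genes, build the red cell membrane, condense their nuclei and expel them. Erythroblasts mature around macrophages, which engulf the expelled nuclei, clear old red cells and return their iron.

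Bone marrow from the femurs and tibias of C57/BL6 mice was profiled as single cells. Control mice had received sodium citrate solution and had normal blood sugar. The mice labelled T1D, for type 1 diabetes, had received streptozotocin, a compound that kills the insulin-producing cells of the pancreas, and had high blood sugar. The effects of the compound and of high blood sugar cannot be told apart in this design. In both groups the bone pieces were digested with collagenase I and dispase II and the cells were passed through a red cell lysis buffer, which can itself set how many erythroid cells were recovered. There was 1 library per group, and the labels give no age, sex, number of animals or pooling, so that no difference below has a replicate check and none was tested. Intervals are 95% intervals and cover counting error only.

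The tables held 12880 barcodes for the control library and 15771 for the T1D library, of which 12803 and 15579 were kept. The T1D cells were shallower, with a median of 2757 counts and 803 genes against 3633 counts and 1051 genes. Levels are given as CPM, the counts of a gene in a class of cells scaled to a common total for all genes of that class in a library, and shares of cells with a count are given beside a depth or a background. Ribosomal RNA took 30.3% of the control counts and 34.0% of the T1D counts. The libraries had 253 barcodes in common, and no shared barcode was erythroid in both. Classes were rebuilt by clustering without the 9 genes and without any other hemoglobin gene, so the clusters do not rest on the values of these 9 genes. The other genes named below could enter the clustering. Rhag, Kel, Epb42, Gata1, Aqp1, Blvrb, Kit, Tspo2, Isg20 and Hmgn2 are among the markers that name the erythroid cluster or its stages. Class names come from marker genes and mean cells like that type. No doublet caller was run.

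Sequence just upstream of the start site was at hand for 6 of the 9 genes and is shown because factors that drive these genes bind there: Klf1 binds CACCC boxes, GATA1 binds GATAA, and the CCAAT box and the TATAA match are general promoter elements. Car1, Car2 and Slc4a1 had no entry. The lines give 110 bases, 5′ to 3′ on the gene's strand, from RefSeq on build GRCm38.p6, with each CACCC box, each GATAA site, each CCAAT box and each TATAA match on either strand in capitals. The submitters' processing notes name build mm9 for the count tables, and no coordinate from the tables was used.
Hba-a1, chr11:32283562-32283671, plus strand: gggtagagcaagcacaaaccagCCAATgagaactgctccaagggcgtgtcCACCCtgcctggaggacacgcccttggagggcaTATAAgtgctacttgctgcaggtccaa
Hba-a2, chr11:32296382-32296491, plus strand: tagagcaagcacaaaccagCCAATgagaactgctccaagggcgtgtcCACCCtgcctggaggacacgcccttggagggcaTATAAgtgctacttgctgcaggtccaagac
Hbb-bs, chr7:103827929-103828038, minus strand: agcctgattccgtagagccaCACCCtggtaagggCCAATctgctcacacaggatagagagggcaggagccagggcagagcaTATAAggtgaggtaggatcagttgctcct
Hbb-bt, chr7:103813924-103814033, minus strand: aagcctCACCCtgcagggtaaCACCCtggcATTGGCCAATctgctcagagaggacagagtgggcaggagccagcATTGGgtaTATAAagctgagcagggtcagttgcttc
Alas2, chrX:150547307-150547416, plus strand: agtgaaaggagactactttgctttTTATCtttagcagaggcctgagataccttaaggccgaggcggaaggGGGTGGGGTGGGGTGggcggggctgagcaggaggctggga
Klf1, chr8:84901872-84901981, plus strand: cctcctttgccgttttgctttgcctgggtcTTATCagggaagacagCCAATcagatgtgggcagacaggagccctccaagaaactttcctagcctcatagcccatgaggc

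Each of the 4 globin promoters held a CACCC box, a CCAAT box and a TATAA match. In Hbb-bt the motif CCAAT was found 3 times, and its first occurrences lie side by side on opposite strands. Alas2 and Klf1 held GATAA, in both cases on the opposite strand, and Alas2 held CACCC 3 times on the opposite strand. Over 32844 promoters of the same length, 29.6% held CACCC, 9.44% held GATAA, 20.2% held CCAAT and 10.9% held TATAA. A match is a run of letters and was not tested as a binding site.

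The members of each globin pair are close copies. The coding sequences of Hba-a1 and Hba-a2 shared 428 of 429 bases, and 74 of 90 aligned positions after the stop codon. Hbb-bs and Hbb-bt shared 443 of 444 coding bases, but only 95 of 135 aligned positions after the stop codon. No label says how reads that fit both copies were treated, so the split of alpha counts between Hba-a1 and Hba-a2 is uncertain and that of beta counts is less so. The sum of the 4 globins does not depend on that split between copies, if reads that fit both were kept.

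One cluster of 311 control and 276 T1D cells carried the erythroid markers, with all 17 of those in the tables detected in both libraries. It made up 2.43% of the kept control cells (2.17 to 2.71) and 1.77% of the kept T1D cells (1.57 to 1.99). The ratio of these shares was 0.729 (0.621 to 0.856). Clustering the erythroid cells again gave 2 early subclusters with progenitor genes such as Kit and Myb, 1 in-between subcluster with few stage markers, and 2 late subclusters with Fech, Slc25a37 and Ube2l6. The early subcluster of 47 control and 37 T1D cells was led by the immunoglobulin genes Igha, Jchain and Igkc, and the in-between subcluster rests on 1 middle and 1 late marker only. Early, in-between and late cells numbered 74, 47 and 89 in control marrow and 65, 25 and 60 in T1D marrow. A further 93 control and 110 T1D cells carried markers of neutrophils, B cells or monocytes beside the erythroid ones, and 8 and 16 cells were mostly ribosomal RNA. These were given no stage. Counting only cells with a stage, erythroid cells were 1.64% of the control and 0.963% of the T1D library, a ratio of 0.587 (0.477 to 0.723).

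The late stage was not made of the same cells in both libraries. The late subcluster led by histone genes held 66 of 89 control late cells (74.2%) but 27 of 60 T1D late cells. The other late subcluster, with Bnip3l and Xpo7 among its markers, held the remaining 23 control cells and 33 T1D cells (55.0%). Late cells were 28.6% of the erythroid cells in the control and 21.7% in the T1D library, a ratio of 0.760 (0.572 to 1.01), which turned to 1.18 (0.917 to 1.52) when each cell was staged by its own marker counts.

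The globins followed the stages steeply in both libraries. Summed over the 4 genes, the control library had 558 CPM in early, 10979 CPM in in-between and 58750 CPM in late cells. The T1D library had 2202, 16848 and 93698 CPM. It was thus above the control library at every stage, with ratios of 3.94 (3.47 to 4.49), 1.53 (1.46 to 1.61) and 1.59 (1.57 to 1.62). Over all erythroid cells the levels were 23225 and 31165 CPM, a ratio of 1.34 (1.33 to 1.36), and over cells with a stage 23499 and 34097 CPM, a ratio of 1.45 (1.43 to 1.47).

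**Figure D1:**
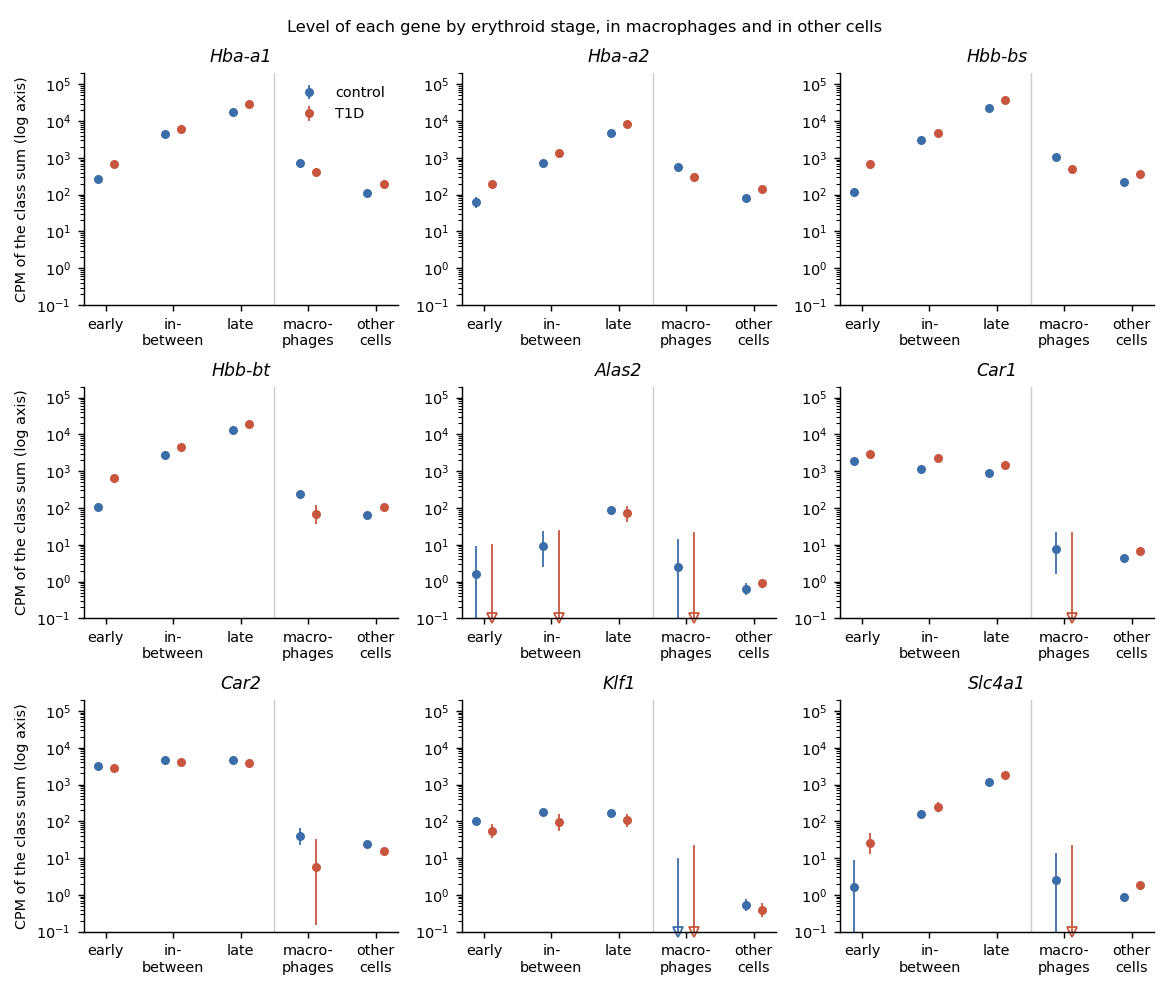
Level of each of the 9 genes in CPM (log axis) in early, in-between and late erythroid cells, in macrophages and in all other cells, with points for the class sum of each library and bars for 95% counting intervals; open triangles mark classes with no count. The globins and Slc4a1 climb with stage in both libraries, Car1 falls with stage, and among erythroid cells Alas2 is seen mostly in late ones.

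A difference between the libraries was called when it reached 2-fold with 5 CPM added to both, when the higher library had at least 50 CPM, and when its counting interval left out 1. Over all erythroid cells 0 of the 9 genes were called, while 1.54% of 3246 genes were called higher in the T1D library, 1.05% lower and 2.59% in either direction. Over erythroid cells with a stage 0 of the 9 were called as well, against 0.884% higher, 1.42% lower and 2.3% in either direction of 3169 genes. At the early stage the 4 globins were called higher in the T1D library and none of the 9 lower, where 1.5% of 3522 genes were called higher, 3.09% lower and 4.6% in either direction. At the in-between stage Car1 alone was called, as higher, against 4.73% higher, 4.2% lower and 8.93% in either direction of 3527 genes. At the late stage 0 of the 9 were called, against 3.02% higher, 6.33% lower and 9.35% in either direction of 2748 genes. No call was tested against replicates.

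**Figure D2:**
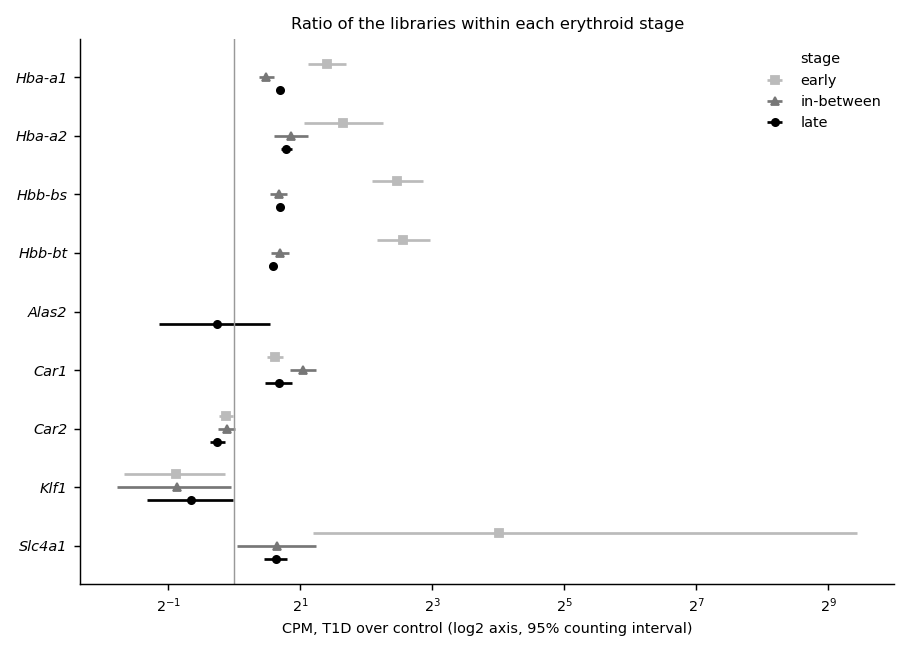
T1D over control ratio of CPM for each gene within early, in-between and late cells (log2 axis), with 95% counting intervals and a line at 1; Alas2 is drawn for late cells only, since the T1D library had no count at the other stages. The globins, Car1 and Slc4a1 lie to the right of 1 and Klf1 to the left at every stage drawn.

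Hba-a1 had 267, 4358 and 18081 CPM in early, in-between and late control cells, and 703 (622 to 793), 6075 and 29122 CPM in T1D cells. Hba-a2, its near-identical copy, had 62.2, 747 and 4727 CPM in the control and 194, 1352 and 8156 CPM in the T1D library. The T1D library was higher at all 3 stages for both alpha genes, with ratios of 1.39 to 2.64 for Hba-a1 and 1.73 to 3.12 for Hba-a2.

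Hbb-bs had 121, 3051 and 22977 CPM in the control and 669, 4864 and 37057 CPM in the T1D library. Hbb-bt, the other adult beta gene, had 108, 2822 and 12966 CPM in the control and 635, 4556 and 19364 CPM in the T1D library. For the beta genes the early ratios were 5.52 (4.25 to 7.26) for Hbb-bs and 5.88 (4.46 to 7.84) for Hbb-bt, above those of the alpha genes. From the in-between stage on, the 4 globins had ratios between 1.39 and 1.81.

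Much of the early excess sat in few cells. One T1D cell held 324 of the 839 early globin counts (38.6%), and 4 of 65 T1D early cells had globins at 1% or more of their counts, against 0 of 74 control early cells. The median early cell had 0.0185% globin counts in the control and 0.0213% in the T1D library. Without the cell with the most globin counts in each library, the early levels were 500 and 1369 CPM, a ratio of 2.74 (2.37 to 3.17). That ratio leaves out only 1 cell per library. The level without all 4 T1D cells of 1% or more was not computed, so whether the early calls hold without them was not tested. In the early subcluster with Gata2 the globins had 71.2 CPM in the control (15 counts in 27 cells) and 3198 CPM in the T1D library (528 counts in 28 cells). The median cell there had 0% globin in both libraries, while 3 T1D cells had 1% or more, the highest 6.80%. In the early subcluster led by immunoglobulin genes the globins had 815 and 1441 CPM, a ratio of 1.77 (1.51 to 2.07). Markers of other cells also differed in early cells: plasma cell markers had 88.4 CPM in the control (5 of 8 detected) and 570 CPM in the T1D library (6 of 8), and mature neutrophil markers 174 and 367 CPM (8 of 8 in both). Their part in the early globin level was not tested.

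The late excess was spread over the cells. The median late cell had 4.16% globin counts in control marrow and 8.09% in T1D marrow, with ranges of 1.07% to 57.3% and 1.80% to 33.6%. Cells with 10% or more were 15 of 89 (16.9%, 9.75 to 26.3) in the control and 21 of 60 (35.0%, 23.1 to 48.4) in the T1D library. The number of globin counts in the median late cell was close, 260 and 289.5, while the median total was 5921 and 3987 counts. The ratio of the class sums was also uneven within the stage. In the late subcluster led by histone genes the globins had 54089 and 101719 CPM, a ratio of 1.88 (1.84 to 1.92), and in the other late subcluster 80334 and 85455 CPM, a ratio of 1.06 (1.03 to 1.10). The median cell was higher in the T1D library in both, with 4.16% and 9.99% globin in the first and 4.04% and 7.11% in the second. In the second, 39.1% of control and 63.6% of T1D cells had 5% or more globin. Its control sum includes the cell with 57.3% globin. Immature neutrophil markers were also higher in late T1D cells, with 488 CPM over 6 of 8 markers in the control and 996 CPM over 7 of 8 in the T1D library. Mature neutrophil markers had 163 and 341 CPM over 6 of 8, and the part of both lists in the globin level was not tested.

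**Figure D3:**
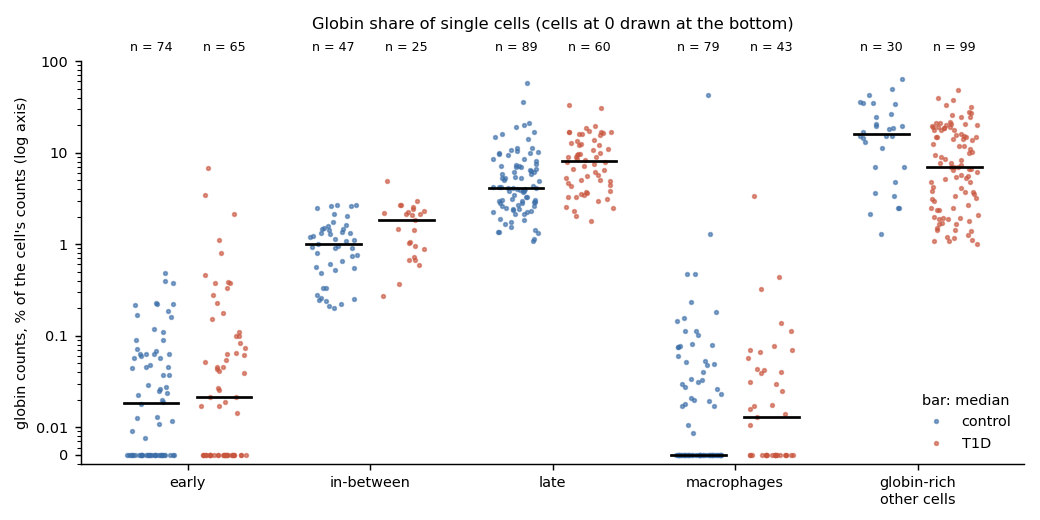
Share of each cell's counts that are globin, in percent (log axis, cells with none drawn at the bottom), for early, in-between and late erythroid cells, macrophages and globin-rich other cells; points are cells and black bars medians. The medians of late cells are 4.16% in the control and 8.09% in the T1D library, and single macrophages and other cells reach the range of late cells.

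The make-up of the globin counts also moved with stage. These are shares of counts and not of molecules per length, so they are compared between cells and not between genes. Alpha counts were 58.9% of globin counts in early, 46.5% in in-between and 38.8% in late control cells. In the T1D library they were 40.8%, 44.1% and 39.8%, so that the libraries were apart at the early stage (intervals 53.5 to 64.2 and 37.4 to 44.2) and within 1 percentage point of each other at the late stage. The early T1D share rests on few cells: it was 40.2% (35.9 to 44.6) without the cell with the most globin, and 44.7% (39.0 to 50.6) without the 4 cells of 1% or more. Hbb-bt made up 47.1% and 48.7% of the beta counts in early cells of the control and T1D library, 48.1% and 48.4% in in-between cells, and 36.1% and 34.3% in late cells. The beta counts of both libraries thus leaned further to Hbb-bs in late cells.

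The same lean appeared among late cells of unequal globin load. From late cells with 1% to 5% globin, through 5% to 10%, to 10% or more, Hbb-bt was 43.9%, 35.5% and 31.0% of the beta counts in control cells and 40.8%, 39.7% and 31.1% in T1D cells. The Hba-a2 share of alpha counts in the same cells was 15.2%, 19.3% and 26.4% in the control and 21.6%, 19.3% and 23.1% in the T1D library. The alpha share carries the uncertainty of the near-identical copies.

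**Figure D4:**
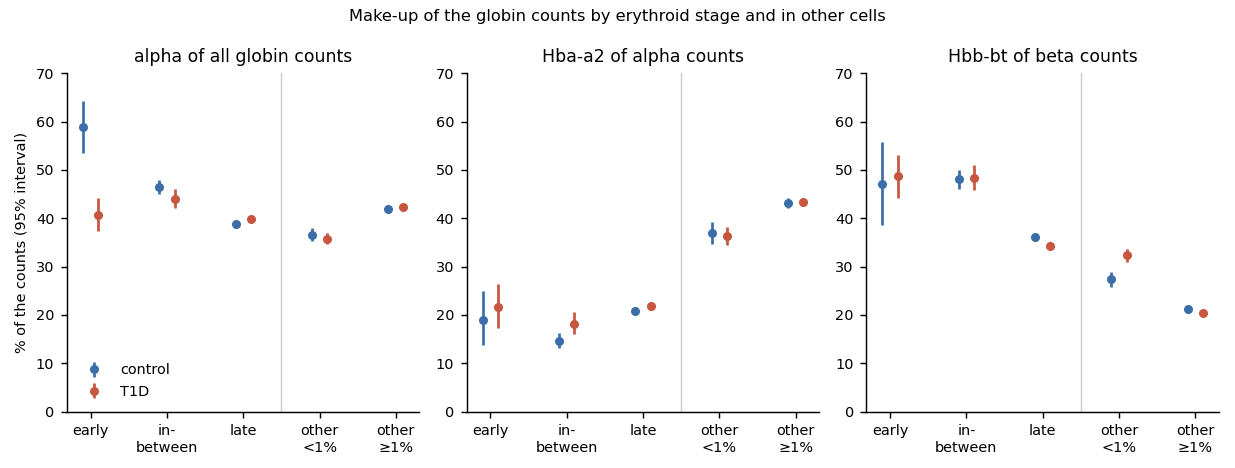
Alpha counts as a percent of globin counts, Hba-a2 as a percent of alpha counts and Hbb-bt as a percent of beta counts, for early, in-between and late erythroid cells and for other cells with under 1% and with 1% or more globin; points are libraries and bars 95% intervals. The Hba-a2 share is 43.1% and 43.3% in globin-rich other cells, above every erythroid stage, and the Hbb-bt share is lowest there.

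Alas2, which makes the first product of the heme pathway in erythroid cells, was sparse. The control library had 1, 4 and 48 counts in early, in-between and late cells, and the T1D library 0, 0 and 18. A count of 0 allows up to 7.87 CPM in early and 19.2 CPM in in-between T1D cells (3 counts). In late cells the levels were 87.1 CPM (64.2 to 116) and 72.3 CPM (42.8 to 114), a ratio of 0.830 (0.454 to 1.45), which does not settle a direction. Over all erythroid cells they were 34.5 and 23.4 CPM, from 85 and 35 counts, with a ratio of 0.680 (0.445 to 1.02). In the late subcluster with Bnip3l and Xpo7 the control had 204 CPM in 20 counts and the T1D library 81.4 CPM in 10 counts, a difference named after its values were seen.

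Of the rest of the heme pathway, 12 of 14 listed genes reached 50 CPM in erythroid cells. None was called in either direction, 4 had a ratio above 1 and 8 below it, and their median log2 ratio was -0.41 beside -0.05 over all 3246 genes. The distance was smaller without the mixed cells: over cells with a stage the median was -0.22 beside -0.06 over all genes, and in late cells, with 5 above and 7 below 1, it was -0.04 beside -0.11. Tmem14c, which is needed to move heme precursors across the inner mitochondrial membrane, had 350 and 233 CPM. Ppox had 91.6 and 60.2 CPM, and the mitochondrial transporter Abcb10 had 97.3 and 63.5 CPM.

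Klf1, the erythroid factor that drives adult beta globin and many red cell genes, was lower in the T1D library at every stage. Control cells had 102, 176 and 171 CPM in early, in-between and late cells, and T1D cells 55.1, 96.1 and 108 CPM. The ratios were 0.543 (0.314 to 0.903), 0.547 (0.292 to 0.960) and 0.635 (0.398 to 0.984), from 21, 15 and 27 T1D counts. Over all erythroid cells Klf1 had 132 CPM (118 to 147) in the control and 70.9 CPM (58.0 to 85.8) in the T1D library, a ratio of 0.538 (0.428 to 0.672). It lay below 1 in each of the 5 subclusters with a stage, where 4 of the 5 intervals reached past 1, and below 1 with each of the 5 scalings tried. The share of erythroid cells with a Klf1 count was 54.0% in the control and 26.8% in the T1D library at median depths of 7346 and 4936.5 counts, and 15.1% and 7.61% after each cell was thinned to 1000 counts. T and NK cells, which should lack it, had 1 count in 484 cells and 0 counts in 656 cells.

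The other listed erythroid transcription factors showed no common direction, with 9 of 16 ratios above 1, a median log2 ratio of 0.01 and 0 calls over all erythroid cells. In late cells 9 of 14 were above 1, with a median of 0.13 beside -0.11 over all genes. There 2 were called higher, against 3.02% of all genes, and 0 lower. In early cells 3 of 13 were above 1. Gata1, the master regulator of the lineage, had 239 and 282 CPM, and is given beside Klf1 although it was not among the genes the naming rule picked. E2f2, a cell cycle factor with a role in the last divisions of erythroblasts, had 133 and 261 CPM, a ratio of 1.96 (1.68 to 2.27), and 212 and 614 CPM in late cells, where it was called higher. Over erythroid cells with a stage it was also called, with 119 and 260 CPM. Nfia had 170 and 258 CPM and Foxo3 had 79.4 and 51.5 CPM. Of 13 listed genes of erythropoietin signalling only 4 reached 50 CPM over all erythroid cells, and all 4 had ratios above 1, as did 44.6% of all genes. Over cells with a stage 4 of 5 were above 1, and in late cells 2 of 3. The kinase gene Pim1, a target of STAT5, was called higher in each of these 3 sets of cells, with 80.7 and 205 CPM over all erythroid cells. Kit, Stat5b and Jak2 were not called.

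Slc4a1, or band 3, exchanges chloride for bicarbonate across the red cell membrane and anchors the membrane skeleton. It had 1.64, 160 and 1167 CPM in early, in-between and late control cells, and 26.2, 250 and 1803 CPM in T1D cells. The late ratio was 1.54 (1.37 to 1.75), close to that of the globins in the same cells, and the in-between ratio was 1.57 (1.03 to 2.35). The early values rest on 1 and 10 counts, with a ratio of 16.0 and an interval from 2.28 to 696. Per 1000 globin counts, late cells had 19.9 Slc4a1 counts in the control and 19.2 in the T1D library.

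The other membrane genes of the list were mixed, with 9 of 20 ratios above 1 and 0 calls over all erythroid cells. Rhag, an ammonia channel of the Rh complex, had 389 and 620 CPM. The membrane skeleton gene Epb42 had a ratio of 0.645, and the blood group protein Kel had 97.7 and 56.9 CPM.

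Car1 and Car2 encode carbonic anhydrases, which interconvert carbon dioxide and bicarbonate for the exchanger. Their stage patterns were opposed from early to in-between cells. Car1 was highest in early cells, with 1860, 1140 and 899 CPM in early, in-between and late control cells and 2851, 2346 and 1430 CPM in T1D cells. Car2 had 3089, 4515 and 4583 CPM in the control and 2822, 4159 and 3831 CPM in the T1D library. In both libraries its early level was the lowest of the 3. From in-between to late cells Car2 changed little in the control and fell in the T1D library.

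The libraries also differed in opposite ways for these enzymes. Car1 was higher in the T1D library at each stage, with ratios of 1.53 (1.41 to 1.67), 2.06 (1.79 to 2.36) and 1.59 (1.38 to 1.83), and 1128 and 1957 CPM over all erythroid cells. Car2 had ratios of 0.914 (0.847 to 0.985), 0.921 (0.842 to 1.01) and 0.836 (0.775 to 0.901), and 3650 and 3045 CPM over all erythroid cells, a ratio of 0.834 (0.805 to 0.865). The median erythroid cell had 6 and 7 Car1 counts, but 26 and 13 Car2 counts. These counts are not scaled for depth, and the median totals were 7346 and 4936.5 counts. The Car2 direction was not shared by all subclusters, since it was 1.33 (1.15 to 1.53) in the early subcluster with Gata2 and 1.10 (0.960 to 1.27) in the late one with Bnip3l and Xpo7. Of the 12 other carbonic anhydrase and bicarbonate transport genes listed, 0 reached 50 CPM in erythroid cells.

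Of 10 measured iron genes, 9 had ratios below 1 over all erythroid cells, with a median log2 ratio of -0.28 beside -0.05 over all genes, of which 44.6% were above 1. Over cells with a stage it was 7 of 10, with a median of -0.19 and 1 called lower, against 1.42% of all genes. In late cells it was 7 of 8, with a median of -0.67 beside -0.11 over all genes. There 3 of the 8 were called lower, against 6.33% of all genes. Over all erythroid cells 2 iron genes were called lower, against 1.05% of all genes. The called genes were the ferritin light chain Ftl1, with 173 and 75.6 CPM, and the endosomal ferric reductase Steap3, with 93.2 and 40.1 CPM. Ferritin heavy chain, Fth1, had 1638 and 885 CPM, a ratio of 0.540 (0.507 to 0.575). Over the erythroid cells with a stage Ftl1 had 172 and 86.5 CPM and was not called. Of the red cell antioxidant genes 8 of 9 had ratios below 1 with 0 calls over all erythroid cells and 5 of 9 in late cells, among them Blvrb with 411 and 227 CPM and Prdx2 with 779 and 641 CPM. Hagh, of the same list, was called lower over cells with a stage and in late cells, and Blvrb in early cells. Maturation genes had 7 of 11 ratios below 1 and 0 calls over all erythroid cells, and Isg20 and Hmgn2 were called lower in late cells, where 6.33% of all genes were. Eif2ak1, the heme-regulated kinase that holds back globin synthesis, had 117 and 110 CPM. Ahsp, the alpha chain chaperone, and the embryonic globins Hbb-y, Hbb-bh1, Hbb-bh2 and Hba-x were not analysed here.

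Genes with a similar pattern were sought over 29 points, each a class of cells in a library, among 6402 genes. All points of a library share its depth, and the correlations of log2(CPM + 5) are descriptions. Epb42 was nearest to the summed globins (r = 0.891) and Slc6a20a to Slc4a1 (r = 0.991). Car1 was nearest to Tspo2 (r = 0.980), Car2 to the water channel Aqp1 (r = 0.975), Klf1 to Cldn13 (r = 0.992) and Alas2 to Fn3k (r = 0.981). Slc6a20a and Apol8 were among the 5 nearest genes of the globins, Alas2 and Slc4a1, whereas no gene of the Klf1 set recurred in the globin set.

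Macrophages were cells outside the erythroid cluster with at least 5 counts over C1qa, C1qb and C1qc and at least 2 of these detected. There were 79 in the control and 43 in the T1D library. All 14 macrophage markers were detected in both, and markers of other types were also present and differed between the libraries. Immature neutrophil markers had 11086 and 12966 CPM (8 of 8 detected in both), mature neutrophil markers 4062 and 6058 (8 of 8 in both), and stromal or endothelial markers 541 and 1018 (5 and 4 of 9). Megakaryocyte markers had 282 and 87.3 CPM, from 1 of 9 markers. The part of these cell types in the macrophage values was not tested.

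Summed globins in macrophages had 2623 CPM in the control (1032 counts) and 1292 CPM in the T1D library (222 counts), a ratio of 0.492 (0.424 to 0.570). Hbb-bs had 1070 and 500 CPM, Hbb-bt 244 and 69.8, Hba-a1 740 and 425, and Hba-a2 569 and 297 CPM. Hbb-bs and Hbb-bt were called lower in the T1D library, where 5.95% of 3243 genes were called lower, 8.54% higher and 14.5% in either direction. Single cells decided these sums. One control cell held 828 globin counts (80.2% of the sum, and 42.1% of its own 1965 counts), and 1 T1D cell held 166 (74.8%). The T1D cell has a barcode that the control library also has, and without shared barcodes the ratio was 0.128 (0.0959 to 0.167).

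Without the cell with the most globin in each library, macrophages had 521 and 336 CPM, a ratio of 0.644 (0.470 to 0.869) that was not called. Without all cells of 1% or more globin, they had 330 and 336 CPM. In macrophages with no count of an erythroid marker the T1D level was the higher one, with 558 and 1308 CPM, but 1 T1D cell held 166 of the 201 counts. Without the cell with the most globin in each library this set had 309 and 235 CPM, a ratio of 0.762 (0.501 to 1.14). The median macrophage had 0 globin counts in the control and 1 in the T1D library.

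The other 5 genes were close to absent from macrophages. Klf1 had 0 counts in both libraries, which allows 7.63 CPM in the control and 17.5 CPM in the T1D library. Alas2 and Slc4a1 had 1 count each in the control and 0 in the T1D library, Car1 had 3 and 0, and Car2 had 16 and 1. Erythroid markers gave 25 counts in control macrophages, over 9 of 17 markers, and 3 counts in T1D macrophages, over 3 of 17, with Rhag, Gata1 and Kel at 0 in both.

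Of 13 measured genes for heme and iron recycling in macrophages, 1 was called higher and 5 lower in the T1D library, beside 8.54% and 5.95% of all genes. Hmox1, which breaks down heme, had 1169 and 2933 CPM, a ratio of 2.51 (2.21 to 2.85). Cd163, the receptor for hemoglobin bound to haptoglobin, had 127 and 23.3 CPM, and Ftl1 had 747 and 279 CPM. Blvrb had 83.9 and 23.3 CPM, Nfe2l2 285 and 98.9 CPM, and Fth1 3971 and 1880 CPM. Hmox1 and Fth1 were named after their values were seen. Of 10 measured genes of the erythroblastic island, the niche in which macrophages hold erythroblasts, against the same shares of all genes, Vcam1 was called higher with 2301 and 4853 CPM, and Itga4 and Adgre1 were called lower with 119 and 40.7 and with 206 and 81.5 CPM.

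Globin counts were found in every class of cells outside the erythroid cluster. No globin count was found in 9800 of 12492 such cells in the control and in 11476 of 15303 in the T1D library, and the summed level was 477 and 817 CPM, a ratio of 1.71 (1.69 to 1.74). This amounted to 31.4% of all globin counts of kept cells in the control and 46.8% in the T1D library. For the other genes the share of counts outside the erythroid cluster was smaller, except for Alas2 in the T1D library, where it was 56.2% (29.2% in the control). It was 8.45% and 15.9% for Klf1, 4.18% and 9.24% for Slc4a1, 7.91% and 10.2% for Car1, and 12.6% and 14.6% for Car2. None of the 9 genes was called over these cells, where 1.02% of 2743 genes were called higher, 2.59% lower and 3.61% in either direction. By class the summed globins went both ways. They were higher in T1D unnamed cells (62.7 and 1376 CPM), monocytes (166 and 600 CPM), immature neutrophils (279 and 848 CPM) and stem or multipotent progenitors (194 and 411 CPM). They were lower in T1D mature B cells (931 and 315 CPM) and plasma cells (1124 and 109 CPM). Some classes were held by different clusters in the libraries: 1 monocyte cluster had 883 control and 48 T1D cells and another 236 and 1270, the largest mature neutrophil cluster of the control had 2093 and 142 cells and that of the T1D library 134 and 3145, and 1 unnamed cluster had 11 and 499 cells.

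Most of these counts sat in a few cells. Cells outside the erythroid cluster with globins at 1% or more of their counts numbered 30 in the control (0.240%, 0.162 to 0.343) and 99 in the T1D library (0.647%, 0.526 to 0.787), a ratio of shares of 2.69 (1.79 to 4.05). They held 80.4% and 83.6% of the globin counts outside the erythroid cluster, and the highest had 63.0% globin in the control and 48.3% in the T1D library. Mature neutrophils gave 8 and 35 of them, immature neutrophils 3 and 26, and monocytes 2 and 14. The 5 in the pro- or pre-B cell cluster came from the control library, since that cluster had no T1D cell. Only 1 control and 5 T1D cells among them had 3 or more erythroid markers.

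The globin-rich cells had few transcripts of the other erythroid genes. Per 1000 globin counts they had 1.62 and 1.31 Car2 counts in the control and T1D library, while late erythroid cells had 78.0 and 40.9. Slc4a1 had 0.523 and 0.379 per 1000, against 19.9 and 19.2, and Car1 had 0.380 and 0.409, against 15.3 in both. Klf1 had 0 and 2 counts in all of them together. Alas2 stood apart from these, with 1.14 and 0.876 per 1000 globin counts in globin-rich cells and 1.48 and 0.771 in late erythroid cells. The Hba-a2 share of alpha counts was 43.1% and 43.3%, against 20.7% and 21.9% in late erythroid cells, and the Hbb-bt share of beta counts was 21.2% and 20.4%, against 36.1% and 34.3%.

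Below 1% globin, the remaining cells outside the erythroid cluster had 93.7 and 135 CPM, a ratio of 1.44. Mature B cells and plasma cells, lower in the T1D library over all their cells, were higher there once globin-rich cells were left out. By class the level in cells below 1% globin ran from 29.5 CPM in control plasma cells to 405 CPM in unnamed T1D cells. T and NK cells had 105 and 141 CPM and mature B cells 121 and 190 CPM, and plasma cells had 29.5 and 109 CPM. Among the named classes macrophages were highest in both libraries, followed by T1D stem or multipotent progenitors with 275 CPM.

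**Figure D5:**
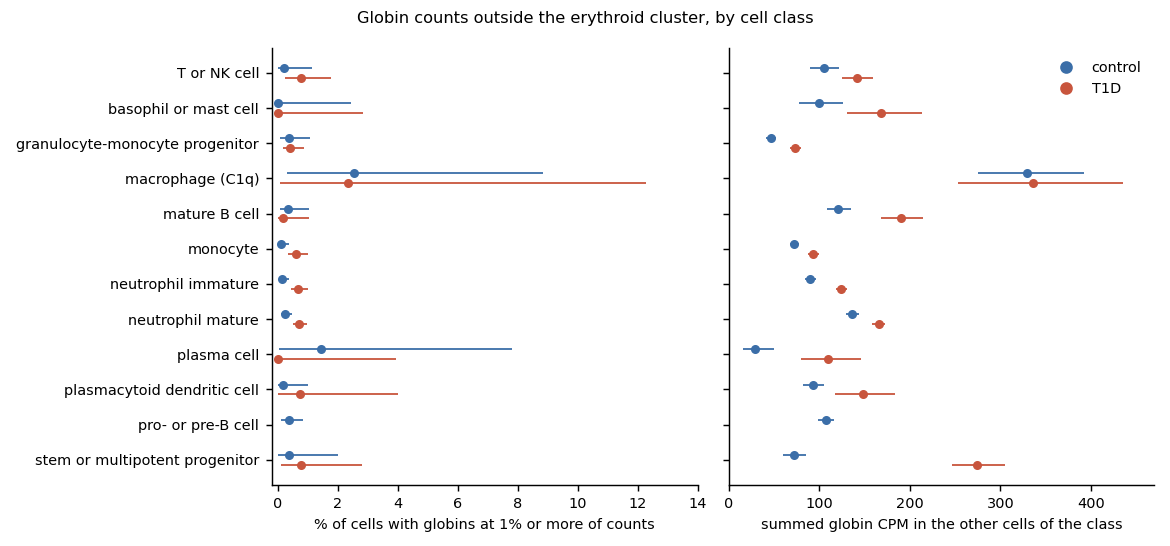
By class of cells outside the erythroid cluster, the percent of cells with globins at 1% or more of their counts (left) and the summed globin CPM of the remaining cells (right), with points for libraries and bars for 95% counting intervals; pro- or pre-B cells have control cells only. Globin-rich cells were 0.130% of control and 0.678% of T1D immature neutrophils, and T1D stem or multipotent progenitors stand apart from their control on the right, with 275 against 71.9 CPM.

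In stem or multipotent progenitors the excess came from Hbb-bt alone, an observation made after the values were seen. This cluster of 277 control and 255 T1D cells carried 8 of its markers, Cd34 among them, and the megakaryocyte genes Pf4 and Itga2b were also among its 10 leading genes by fold. Leaving out its 1 and 2 globin-rich cells, Hbb-bt had 27 counts in the control (15.4 CPM, 10.2 to 22.4) and 282 in the T1D library (226 CPM, 200 to 254). Hbb-bs had 62 and 30 counts and the alpha genes together 37 and 31. Hbb-bt was thus 30.3% of the beta counts in the control (21.0 to 41.0) and 90.4% in the T1D library (86.6 to 93.4). In granulocyte-monocyte progenitors below 1% globin the Hbb-bt share was 26.2% and 27.0%, and in mature neutrophils 26.3% and 26.2%. The other class that stood out was T1D plasmacytoid dendritic cells with 58.1%, where 1 cell held 23 of 36 Hbb-bt counts.

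The Hbb-bt counts of T1D progenitors were spread over 59 of 253 cells (23.3%, 18.3 to 29.0), with a median of 3 and a highest of 21 counts among them, and 45 of the 59 had no other globin count. In the control 17 of 276 cells (6.16%) had a count. T and NK cells, which should lack the transcript, had it in 5.18% of control and 4.92% of T1D cells. Hlf, a transcription factor of hematopoietic stem cells, was detected in 32 of the 59 T1D progenitors with Hbb-bt (54.2%) and in 35 of the 194 without it, at median totals of 4640 and 4079.5 counts. Control progenitors had Hlf in 8 of 17 cells with Hbb-bt (47.1%) and in 83 of 259 without it (32.0%). Klf1 was at 0 in the 59 cells and Gata1 was found in 3 of them. The lean to Hbb-bt over all cells below 1% globin, 27.4% in the control and 32.3% in the T1D library, was 27.3% and 27.8% without this cluster.

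Car2 was also found in progenitors, with 266 and 191 CPM and a count in 57.0% and 49.0% of cells, against 11.6% and 4.73% of T and NK cells. Car1 had 47.2 and 51.7 CPM there. Alas2 had 0 counts in progenitors of both libraries, and Slc4a1 had 0 and 1. Car2 in T and NK cells was lower in the T1D library, with 57.4 and 20.7 CPM.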

How the data were processed

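The deposited files are 2 tables of whole-number counts per gene and cell barcode, 1 per library, which the authors made with the Singleron GEXSCOPE kit per the labels' protocols; their counts were used without change. Per the submitters' processing notes bcl2fastq 2.19, featureCounts and build mm9 were used, while for the aligner, the annotation, cell calling and molecular identifiers nothing is given in the sources used here. Library totals were 57494166 and 52022458 counts. Kept cells had 200 or more genes and mitochondrial counts of 20% or less. They were clustered in Python 3.11.15 with scikit-learn 1.9.0 and leidenalg 0.10.2 (2000 variable genes, 30 components, 15 neighbours, resolution 1, best of 10 starts), which gave 28 clusters. The genes described, other hemoglobin genes, mitochondrial genes, the ribosomal RNA feature and sex-linked and immunoglobulin variable genes were left out. A cluster was named from at least 3 markers with 2-fold and 50 CPM. The erythroid cluster was split again with 1000 genes and 10 components into 11 subclusters, staged by markers with 1.5-fold.

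Counts were summed per class and library. Poisson and Clopper-Pearson intervals are exact, and ratios of CPM have exact conditional binomial intervals; ratios of shares have log-scale (Katz) intervals. With 1 library per group no p-value was computed. The rule for called differences was tested on simulated data with counting error only. Of 50 genes changed 2-fold it called 16 in erythroid cells and 25 in macrophages, and of 50 changed 3-fold 50 and 46. Of unchanged genes it called 0 of 14247 in erythroid cells and 99 of 10820 in macrophages. These unchanged genes include those under 50 CPM, which the rule cannot call. The shares of called genes given above are over genes that reached 50 CPM only, so the 2 cannot be compared directly. All 9 genes are named; from each pathway list up to 4 genes with the largest log2 ratio were named, and any other gene is marked as named after its values were seen. The genes and lists were chosen with earlier results of these data known. TMM (edgeR 4.0.16) and DESeq2 1.42.0 size factors were used as other scalings only. Upstream sequences came from RefSeq for 6 genes, and globin transcripts from the reference transcripts. Some genes that the rule for named genes picks are not reported here.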

Additional observations from a re-analysis of the deposited data

How the results depend on the processing

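No paired analysis was possible because there was 1 library per group. The summed globin level of erythroid cells was above the control in the T1D library under all 16 alternatives, with ratios from 1.28 to 1.45. It was 1.37 with at most 10% mitochondrial counts, 1.42 with at least 500 genes per cell, 1.38 with totals without the ribosomal RNA feature, 1.38 without the 5% of cells with the highest totals, 1.37 with the level of B, T and NK cells subtracted, 1.28 with cells thinned to 1000 counts, and 1.45 with staged cells only. The erythroid share of kept cells stayed below the control under 8 alternatives (0.587 to 0.804), with 0.587 for staged cells. The late share was below 1 under 7 of 8, the exception being 1.18 when cells were staged by their own marker counts.

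The macrophage result turned with the choice of cells. It was 2.46 with at least 500 genes per cell, 2.34 without cells holding an erythroid marker count and 2.77 with cells thinned to 1000 counts, and below 1 under the other 13: 0.200 as a mean over cells, 0.644 without the cell with most globin, and 0.128 without shared barcodes. Without the cell with most globin in each library, the first 2 became 0.869 and 0.762. The control cell with 828 globin counts drops out of the first of these and, with its 2 erythroid markers, of the second. The thinned set held 32 control and 18 T1D macrophages at 844 and 2333 CPM, and its control level is too low to include that cell. In other cells the ratio was above 1 under all 12 alternatives: 1.81 without the ribosomal RNA feature, 1.49 as a mean over cells, 1.63 without the 5% of cells with the highest totals, 1.52 thinned and 1.44 without globin-rich cells. In early cells it was 2.74 without the cell with most globin.

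The number of genes called in erythroid cells was 84, and 333 with no minimum level and 279 with a minimum of 10 CPM. It was 73 over staged cells, with 28 higher and 45 lower against 50 and 34 in the main count. Alternatives on staged cells, on the cell with most globin, on globin-rich cells and on shared barcodes were chosen after seeing the data. Depth limits Alas2 most, with 85 and 35 counts in erythroid cells, and leaves Klf1 with 106 counts in the T1D library. Stages were rebuilt from markers, and a red cell lysis step and the number of animals bear on every comparison.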
